A study of Mus musculus with 4 samples.

Results

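The core genes of Notch signalling were followed as 10 of the 28649 gene rows of a microRNA pulldown experiment: the Notch receptor genes Notch1, Notch2, Notch3 and Notch4, the ligand genes Jag1, Jag2 and Dll1, and the effector genes Hes1, Hey1 and Heyl. They were taken by symbol alone, and each symbol had 1 row. The experiment used fibro-adipogenic progenitors (FAPs), the stromal progenitors that lie between muscle fibres, sorted as Sca1+ cells from the skeletal muscle of C57Bl/6 mice labelled wild type. At about 80% confluency they were transfected for 24 hours with a biotin-carrying miR-206 mimic or a biotin-carrying control mimic, and were then cultured for 48 hours in basal medium containing 10% horse serum. RNA caught with each mimic was sequenced from 2 replicate samples per mimic, 4 libraries in all. The sources used here do not give the age of the mice, nor whether the replicates were separate mice, sorts or cultures. The tests partly share the spread behind each p-value over genes, so it is not the gene's own spread alone. All of that spread comes from 2 samples a group that may be technical repeats. The cells' whole RNA was not analysed here, so a difference in a transcript's level in the cells and a difference in its capture cannot be told apart.

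Notch receptors are single-pass membrane proteins that are bound by Jagged or Delta-like ligands on a neighbouring cell. Binding lets a metalloprotease and then gamma-secretase cut the receptor, and the freed intracellular domain enters the nucleus, where it joins the DNA-binding protein RBPJ and a Mastermind coactivator and switches on genes of the HES and HEY families of repressors. In skeletal muscle the pathway is best known for holding satellite cells in quiescence, and NOTCH3 is known as the receptor of mural cells around vessels. miR-206 is a muscle microRNA that shares its seed with miR-1, and Notch3 is a published target of miR-206.

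A microRNA finds its targets mainly through its seed, bases 2 to 8 from the 5′ end. The arms of mouse miR-206 are shown because the comparison rests on what pairs with them. They are taken from RefSeq (GRCm38.p6), where the gene lies on the plus strand of chromosome 1 from 20679010 to 20679082. Capitals mark the seed in both mature arms, and the 3p arm within the hairpin of 73 bases.
mmu-miR-206-3p: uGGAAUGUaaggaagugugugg
mmu-miR-206-5p: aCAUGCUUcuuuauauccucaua
Mir206 hairpin: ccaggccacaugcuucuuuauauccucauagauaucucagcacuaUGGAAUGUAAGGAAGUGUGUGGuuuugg
The arm usually called miR-206 is the 3p arm, whose seed pairs with ACAUUCC in a transcript. The sources used here do not give the sequence of the transfected mimic, and the members' transcripts were not searched for that match.

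Totals ranged from 8883200 to 15426700 estimated counts per library. Counts are given as normalised CPM, that is CPM of the library size after TMM scaling. The TMM factors split by group, with 1.62 and 1.34 for the control libraries and 0.624 and 0.737 for the miR-206 libraries. In normalised CPM, 3 counts correspond to 0.157 to 0.330, depending on the library. A gene is called enriched or depleted in the miR-206 pulldown where edgeR's adjusted p lies under 0.05. The sorted cell type was checked on 12 FAP markers, all with a row and all tested. Their summed level was 2902 and 3836 TPM (a level per length and per library) with the control mimic and 4279 and 4545 TPM with miR-206, against 80.3 to 119.8 and 43.9 to 46.2 TPM for 12 endothelial markers, 104.0 to 109.2 and 108.0 to 150.8 TPM for 10 pericyte and smooth muscle markers, 69.7 to 76.5 and 66.4 to 150.6 TPM for 10 myogenic markers, and 9.19 to 20.1 and 4.88 to 6.47 TPM for 8 immune markers. The sort marker itself, Ly6a (Sca1), made up much of the FAP sum, with 1439 and 1944 TPM in the control and 1435 and 1498 TPM in the miR-206 libraries, while Dpp4 and Pi16 lay between 0.0443 and 8.09 TPM. Osr1, with 82.2 and 103.3 against 1345 and 1298 TPM, and Cd34, with 136.4 and 170.5 against 786.7 and 1062 TPM, made up the higher sum of the miR-206 libraries. With edgeR, 4 of the 12 FAP markers were enriched (Osr1, Cd34, Thy1 and Hic1) and 1 depleted (Lum). Of 9 tested myogenic markers 4 were enriched (Myod1, Myog, Chrna1 and Tnnt1) and 1 depleted (Vcam1). Of all tested genes 15.3% were enriched and 6.19% depleted. Among the endothelial markers, Pecam1 had 73.48 and 24.05 TPM in the control and 30.98 and 25.97 TPM in the miR-206 libraries. Cdh5 and Erg were enriched and Egfl7 was depleted, while Cldn5 was at 0 in every library.

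Of the 10 Notch genes, 2 receptors rose in the miR-206 pulldown, Notch3 and Notch2. No ligand and no effector passed the test in either direction. Notch1 was higher and Jag1 lower without passing, and the other members had at most 47 counts in any library. Of the 8 members that passed the filter on low counts, 2 were enriched, against 15.3% of all 15240 genes tested, and 0 were depleted, against 6.19%. At an unadjusted edgeR p under 0.05 there were 3 higher (with Notch1) and 1 lower (Jag1) of the 8, against 19.6% and 13.1% of all genes, and DESeq2 also gave 2 enriched and 0 depleted members. The normalised CPM of the groups did not overlap for 7 of the 8, where 62.0% of all tested genes did not overlap. The median log2 fold (miR-206 over control) of the 8 was 0.20, and that of all genes tested was -0.11.

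**Figure D1:**
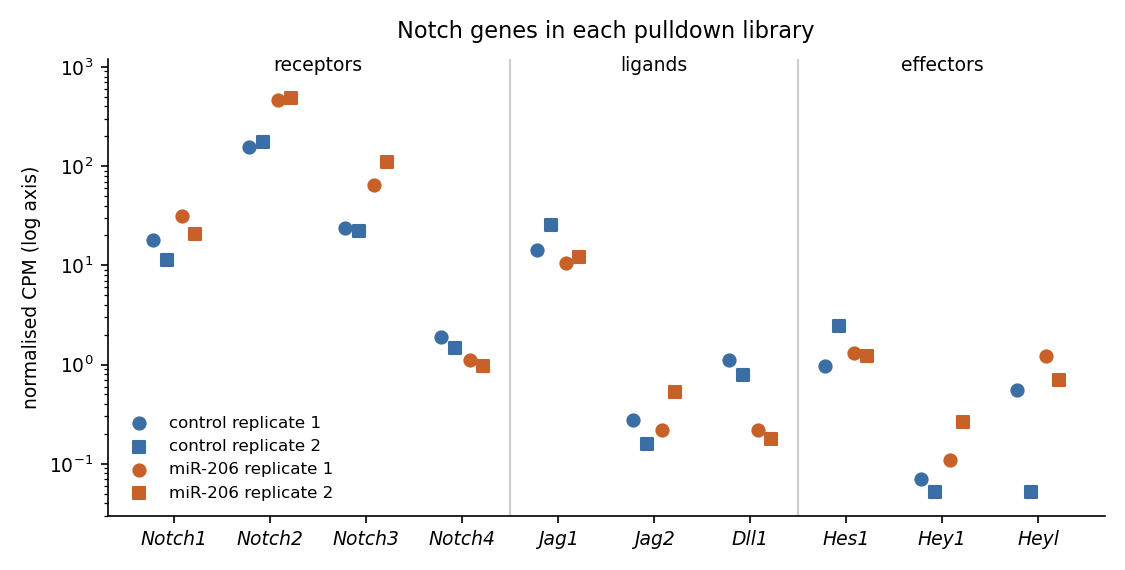
Normalised CPM (log axis) of the 10 Notch genes in each of the 4 libraries, with control libraries in blue and miR-206 libraries in orange, circles for replicate 1 and squares for replicate 2. Notch2 and Notch3 lie higher in both miR-206 libraries than in both control libraries, and Jag2, Hey1 and Heyl lie near or below 1 CPM.

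Notch3 encodes the receptor best known from mural cells. The gene (transcript identifier ENSMUST00000087723) lies on chromosome 17 from 32120820 to 32166896 (GRCm38). Estimated counts were 339 and 427 with the control mimic and 581 and 1251 with miR-206, which is 23.6 and 22.4 against 64.0 and 110.1 normalised CPM. Both miR-206 libraries were above both control libraries, and replicate 2 was the higher of the miR-206 pair. The mean rose from 23.0 ± 0.846 to 87.0 ± 32.6 CPM (SD, n = 2), 3.78-fold, with a log2 fold of 1.92 ± 0.32 (SE), a 95% interval from 1.24 to 2.60 and an edgeR adjusted p of 0.000234. Notch3 had been named as a miR-206 target before and was chosen with that known, so its call here is not independent evidence of it.

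Notch2 was the most abundant member. It encodes a receptor that is broadly present in mesenchymal cells, and its gene (ENSMUST00000079812) lies on chromosome 3 from 98013538 to 98150367. Its counts were 2216 and 3365 for the control and 4215 and 5539 for miR-206, or 154.2 and 176.5 against 464.0 and 487.6 normalised CPM. The replicates of each group lay close together and far from the other group. The mean rose from 165.4 ± 15.8 to 475.8 ± 16.7 CPM (SD, n = 2), 2.88-fold, with a log2 fold of 1.52 ± 0.33 (SE), an interval from 0.82 to 2.23 and an edgeR adjusted p of 0.00253.

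Notch1 (ENSMUST00000123873, chromosome 2, 26457902 to 26503822), the receptor best studied in muscle satellite cells, had similar raw counts in all libraries, 258 and 216 for the control and 284 and 236 for miR-206. After scaling these were 18.0 and 11.3 against 31.3 and 20.8 normalised CPM. The miR-206 libraries were the higher ones and the groups did not overlap, but the log2 fold of 0.83 ± 0.35 did not pass (edgeR adjusted p = 0.105; interval 0.09 to 1.57). It was 1.22 without control replicate 1, 0.57 without control replicate 2, 0.45 without miR-206 replicate 1 and 1.09 without miR-206 replicate 2. Every fit without a library leaves 1 library in a group, takes the spread from the other group and assumes that the lone library varies alike. Notch4 (ENSMUST00000173389, chromosome 17, 34564286 to 34588543), a receptor of endothelial cells, was scarce. It had 27 and 28 counts in the control and 10 and 11 in the miR-206 libraries, or 1.88 and 1.47 against 1.10 and 0.968 normalised CPM. Its log2 fold was -0.69 ± 0.95 and did not pass (edgeR adjusted p = 0.662).

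The calls of both receptors depended on the scaling. A change of library scaling shifts the fold of every gene by about the same amount. The median log2 fold of the tested genes was -0.11 with TMM, -0.40 with the upper quartile and -1.22 with total counts alone. Deposited TPM on the log2(TPM + 1) scale had a median of -0.70. It also brings in a length and an added 1, so it does not shift all genes alike. Relative to the median, Notch3 stood at 2.03 with TMM and 1.49 with TPM, and Dll1 at -2.11 and 0.08. Notch3 and Notch2 passed with TMM and with the upper quartile (log2 fold 1.63 and 1.24; edgeR adjusted p = 0.00407 and 0.00577). They did not pass with total counts (0.83 and 0.42; adjusted p = 0.061 and 0.163) or with TPM (0.79 and 0.57; limma adjusted p = 0.0955 and 0.0977). Of all tested genes 12.3% were enriched with the upper quartile, 7.02% with total counts and 7.17% and 7.23% with TPM (pseudocount 1 and 0.1), and 12.9%, 45.3%, 38.5% and 38.3% were depleted. Relative to the median of all genes, the log2 fold of Notch3 was 2.03 with TMM and that of Notch2 was 1.63, and 91.0% and 87.8% of tested genes had a lower fold. A change of library scaling leaves these relative values nearly as they are by construction, so they say nothing about which scaling holds. Notch1, Notch2 and Notch3 each overlap other genes in the annotation, as do Jag2 and Hey1, and the sources used here do not say whether reads were counted by strand.

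**Figure D2:**
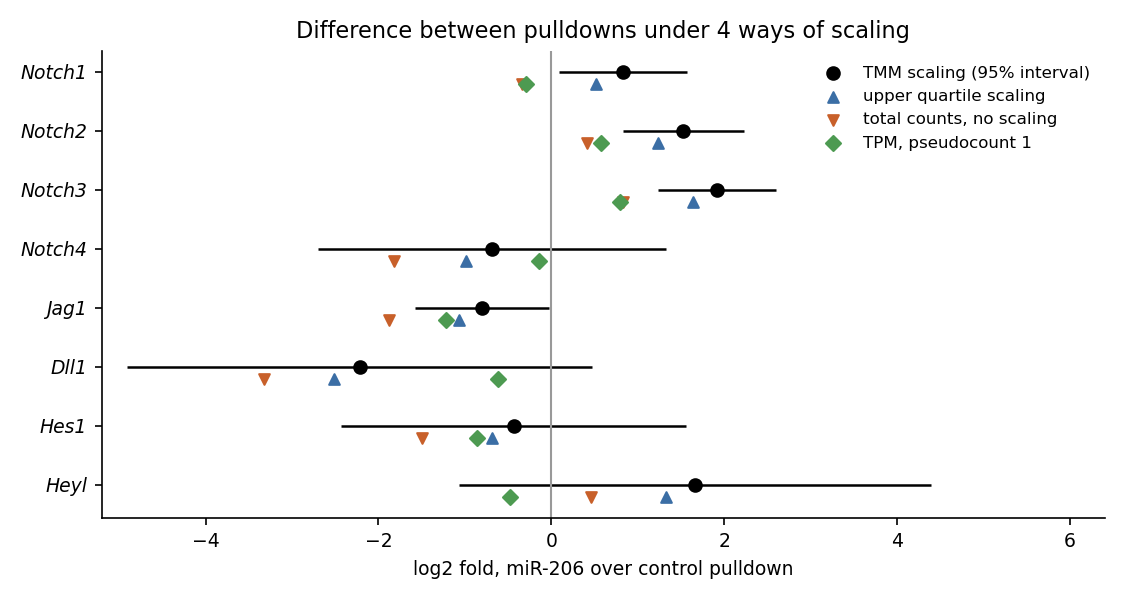
Log2 fold (miR-206 over control pulldown) of the 8 tested Notch genes with TMM scaling (black, with its 95% interval) and under 3 other ways of scaling (coloured symbols). The order of Notch3, Notch2 and Notch1 is the same in all 4, while Notch1 changes sign with total counts and with TPM (-0.34 and -0.30).

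Jag1 encodes the Jagged ligand that was the most abundant of the 3 ligands. Its gene lies on chromosome 2 from 137081451 to 137116520. It had 206 and 483 counts in the control and 97 and 138 in the miR-206 libraries, or 14.3 and 25.3 against 10.7 and 12.1 normalised CPM. Both miR-206 libraries were below both control libraries, and the control libraries differed more from each other than the miR-206 libraries did. The mean was 19.8 ± 7.78 CPM in the control and 11.4 ± 1.04 CPM in the miR-206 group (SD, n = 2), with a log2 fold of -0.80 ± 0.37 that did not pass (edgeR adjusted p = 0.140; interval -1.57 to -0.02). Jag1 was depleted with the upper quartile (log2 fold -1.06, edgeR adjusted p = 0.0464), with total counts (-1.87, edgeR adjusted p = 0.00164) and with TPM (-1.21, limma adjusted p = 0.0258). Of all tested genes 12.9%, 45.3% and 38.5% were depleted in those settings. Over the settings that keep all 4 libraries, 19.8% to 24.6% of tested genes had a lower fold than Jag1. Its log2 fold was -1.13 without control replicate 1 and -0.29 without control replicate 2, each with 1 control library left.

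Dll1, a Delta-like ligand (chromosome 17, 15367354 to 15376932), had 16 and 15 counts in the control and only 2 in each miR-206 library. Summed over each group's libraries that is 31 against 4 counts, a ratio of 0.211 per scaled library size with an exact counting interval from 0.0541 to 0.597, which covers counting error only. The groups did not overlap (1.11 and 0.787 against 0.220 and 0.176 normalised CPM), and the fitted log2 fold of -2.21 ± 1.28 did not pass (edgeR adjusted p = 0.247). Both miR-206 libraries were below 3 counts. Jag2, the other Jagged ligand (chromosome 12, 112907803 to 112929812), had 4 and 3 counts in the control and 2 and 6 in the miR-206 libraries, and was not tested. Its groups overlapped, and the ratio of summed counts was 1.87 with a counting interval from 0.592 to 6.05.

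The effectors were scarce in every library. Hes1, a repressor that is a direct Notch target (chromosome 16, 30065357 to 30067796), had 14 and 47 counts in the control and 12 and 14 in the miR-206 libraries, or 0.974 and 2.47 against 1.32 and 1.23 normalised CPM. Control replicate 2 was the highest and control replicate 1 the lowest, so the groups overlapped, and the log2 fold of -0.44 ± 0.95 did not pass (edgeR adjusted p = 0.794). Its sign turned without control replicate 2 (0.43).

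Heyl, a HEY-family repressor (chromosome 4, 123233556 to 123249870), had 8 and 1 counts in the control and 11 and 8 in the miR-206 libraries, with a log2 fold of 1.67 ± 1.29 (edgeR adjusted p = 0.402). That fold was 3.97 without control replicate 1 and 0.80 without control replicate 2, and did not pass in either. Hey1, the other HEY-family repressor (chromosome 3, 8663359 to 8667038), had 1 count in each control library and 1 and 3 in the miR-206 libraries and was not tested, so a difference was not detectable at this depth.

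**Figure D3:**
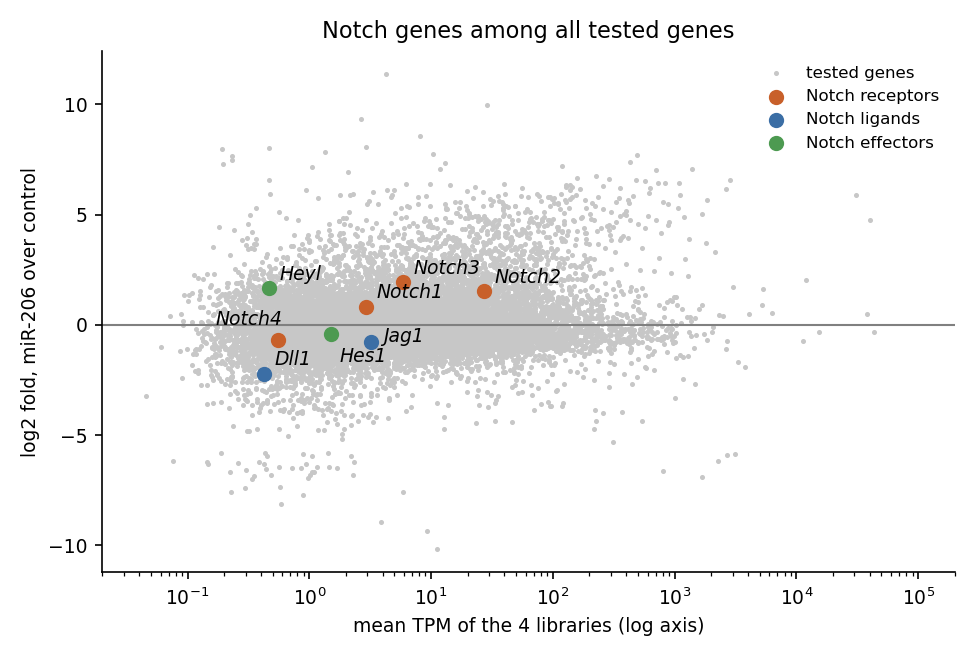
Mean TPM of the 4 libraries (log axis) against the log2 fold of miR-206 over control for all 15240 tested genes (grey) and the 8 tested Notch genes by role. Notch2 and Notch3 lie in the upper part of the cloud at middle to high level, and Dll1, Notch4 and Heyl lie at its low end, where the folds of all genes spread widely.

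Per length, Notch2 was the leading member in both pulldowns, with 21.6 ± 1.34 TPM in the control and 32.5 ± 2.65 TPM in the miR-206 libraries (SD, n = 2), without overlap with the next gene. In the control pulldown Jag1 (4.89 ± 1.76 TPM) and Notch3 (3.94 ± 0.277 TPM) followed with overlapping values, then Notch1 (3.26 ± 0.135 TPM) and Hes1 (2.34 ± 1.83 TPM), which also overlapped. Heyl (0.774 ± 1.07 TPM), Dll1 (0.735 ± 0.320 TPM) and Notch4 (0.641 ± 0.283 TPM) came next by their means and overlapped each other in that order. In the miR-206 pulldown the order was Notch2, Notch3 (7.87 ± 3.29 TPM), Notch1 (2.57 ± 1.23 TPM), Jag1 (1.49 ± 0.204 TPM), Hes1 (0.700 ± 0.00269 TPM) and Notch4 (0.475 ± 0.140 TPM), with no overlap between neighbours in this run. Jag1 ranked 2 in the control order and 4 in the miR-206 order. Jag2 and Hey1 had group means between 0.0607 and 0.127 TPM in both pulldowns.

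Ratios between members within a library do not depend on how libraries are scaled to each other. There were 5.66 and 3.67 TPM of Notch2 for each TPM of Jag1 with the control mimic and 22.8 and 21.1 with miR-206. The share of Notch2 to Jag1 was thus higher in both miR-206 libraries. For Notch3 over Jag1 the ratios were 1.14 and 0.611 against 4.14 and 6.26, and for Notch1 over Jag1 they were 0.869 and 0.547 against 2.57 and 1.04. All of these ratios were higher in both miR-206 libraries than in both control libraries. They share Jag1 as the denominator, so they are not separate observations. Of all tested genes, 62.0% did not overlap between the groups in normalised CPM on their own. Ratios of other gene pairs are not given, so these have no background to be set against. Notch3 over Notch1 was 1.31 and 1.12 against 1.61 and 6.00, also without overlap but with widely different miR-206 libraries. The ratios with Notch1 also depend on the counts behind 1 TPM of Notch1. Relative to each library's median, these varied 1.99-fold over the 4 libraries. Notch3 over Notch2 was 0.201 and 0.167 against 0.181 and 0.297, and here the groups overlapped. These ratios have 2 libraries a group and were not tested.

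The deposited TPM of some members rested on a changing number of reads. Counts per TPM, divided by the library's median over genes, follow the length of the transcripts to which the authors' program assigned the reads. For Notch2, Notch3, Jag1 and Jag2 this value varied by 1.06-fold over the 4 libraries, near the median of 1.08-fold over 14672 tested genes with a TPM above 0 in each library. Notch1 varied 1.99-fold, more than 93.3% of those genes, from 1.99 and 2.68 in control replicate 2 and miR-206 replicate 1 to 3.60 and 3.96 in control replicate 1 and miR-206 replicate 2. Its TPM in miR-206 replicate 2 was the lowest of the 4 (1.70, against 3.17, 3.36 and 3.45), although its normalised CPM there was above both control libraries. Heyl varied 8.51-fold: the same 8 counts stood for 1.53 TPM in control replicate 1 and 0.118 TPM in miR-206 replicate 2. Notch4, Dll1 and Hey1 varied 3.47-fold, 2.87-fold and 2.64-fold, all on few counts. Hes1 varied 1.47-fold, more than 84.4% of the 14672 genes, with 0.401 in control replicate 2 and 0.556 to 0.590 in the other libraries. Levels per length of Notch1, Notch4, Dll1, Hes1, Hey1 and Heyl rest on a less constant conversion than those of Notch2, Notch3 and Jag1.

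**Figure D4:**
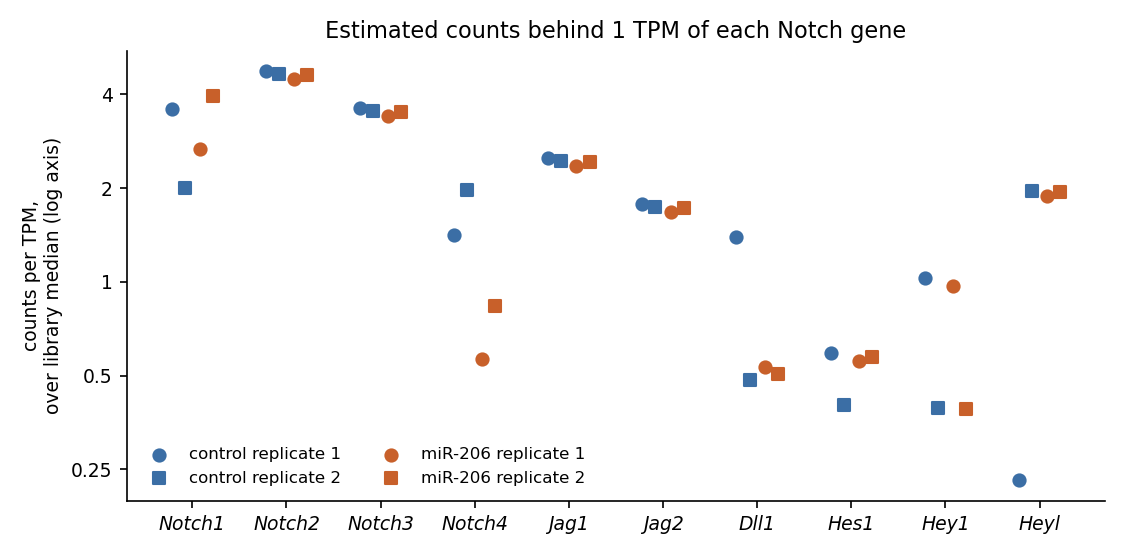
Estimated counts behind 1 TPM of each Notch gene, divided by the median over genes of the same library (log axis), in the 4 libraries. The points of Notch2, Notch3, Jag1 and Jag2 lie together, while those of Notch1, Notch4, Dll1, Hey1 and Heyl spread. Those of Hes1 vary 1.47-fold.

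In the authors' deposited table, which holds no test, the log2 fold of the group mean TPM was 1.00 for Notch3, 0.59 for Notch2, -0.34 for Notch1 and -1.72 for Jag1. For Hes1 the authors' deposited table gives -1.23 with the miR-206 mean set to 0, so that value is no measured ratio. Notch4, Jag2, Dll1, Hey1 and Heyl are not listed among the 14870 genes of that sheet. Of the values listed, the sign for Notch1 is opposite to that with TMM scaling.

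The other genes of the pathway were read from a list of 54, of which 49 passed the filter on low counts. Of these 9 were enriched (18.4%, against 15.3% of all genes) and 0 depleted, with a median log2 fold of 0.08 against -0.11. At this threshold the enriched genes lay in 3 roles: 4 of 8 genes of the nuclear complex, 3 of 9 corepressors and 2 of 12 tested genes of endocytosis and ubiquitylation. None of 10 genes of receptor cleavage, 5 of receptor glycosylation, 3 tested further ligands and 2 tested further HES or feedback genes passed in edgeR with TMM. At an unadjusted p under 0.05, 11 of the 49 were higher and 5 lower, against 19.6% and 13.1% of all genes. With the upper quartile 5 of the 49 were depleted, against 12.9% of all genes, so neither count stands out from the background. These 5 were Adam10 (-0.93) and Adam17 (-1.10), the metalloproteases of the first cut, the gamma-secretase subunit gene Psenen (-0.96), the corepressor gene Tle2 (-1.36) and the Deltex gene Dtx3 (-1.11).

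Maml3, a Mastermind coactivator, had the largest fold of the list. Its normalised CPM was 19.2 and 13.3 in the control and 474.5 and 237.7 with miR-206, with a log2 fold of 4.45 ± 0.42 (edgeR adjusted p = 7.1e-07). Its relative Maml1 had 11.9 and 21.6 against 41.9 and 68.7 normalised CPM (1.72 ± 0.36; edgeR adjusted p = 0.00201). Rbpj, the DNA-binding partner of every Notch receptor, had 146.3 and 174.6 against 390.1 and 426.7 normalised CPM (1.35 ± 0.33; edgeR adjusted p = 0.00619). The remaining enriched gene of the complex was Kat2a, an acetyltransferase gene (1.09 ± 0.34). In all of them both miR-206 libraries were above both control libraries.

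Among the corepressors Spen, which represses with RBPJ in the absence of Notch, rose with a log2 fold of 1.43 ± 0.29, Tle3, a Groucho-type partner of HES proteins, with 1.26 ± 0.31, and the nuclear corepressor gene Ncor1 with 0.92 ± 0.30. Dtx3l, a Deltex-type ubiquitin ligase, had 58.9 and 65.4 against 451.5 and 359.3 normalised CPM (2.71 ± 0.34; edgeR adjusted p = 1.1e-05). Numbl, a relative of the Notch inhibitor Numb, rose with 1.04 ± 0.32. Of the 9, Maml3 and Dtx3l stayed enriched in all 13 alternatives run, with log2 folds of at least 3.11 and 1.58. Calls of the other 7 were lost with total counts and with TPM, where Spen (with TPM) and Ncor1 and Numbl (with both) also had a negative fold. With the upper quartile Kat2a, Ncor1 and Numbl did not pass (edgeR adjusted p = 0.0757, 0.0882 and 0.0726). When 1 library was left out, Ncor1 did not pass in 3 of the 4 fits (edgeR adjusted p = 0.074 to 0.251), Kat2a in 2 (0.0931 and 0.112), Numbl in 2 (0.0676 and 0.275) and Tle3 in 1 (0.0576). Dtx3l, Spen, Ncor1, Numbl and Maml3 also overlap another gene in the annotation.

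**Figure D5:**
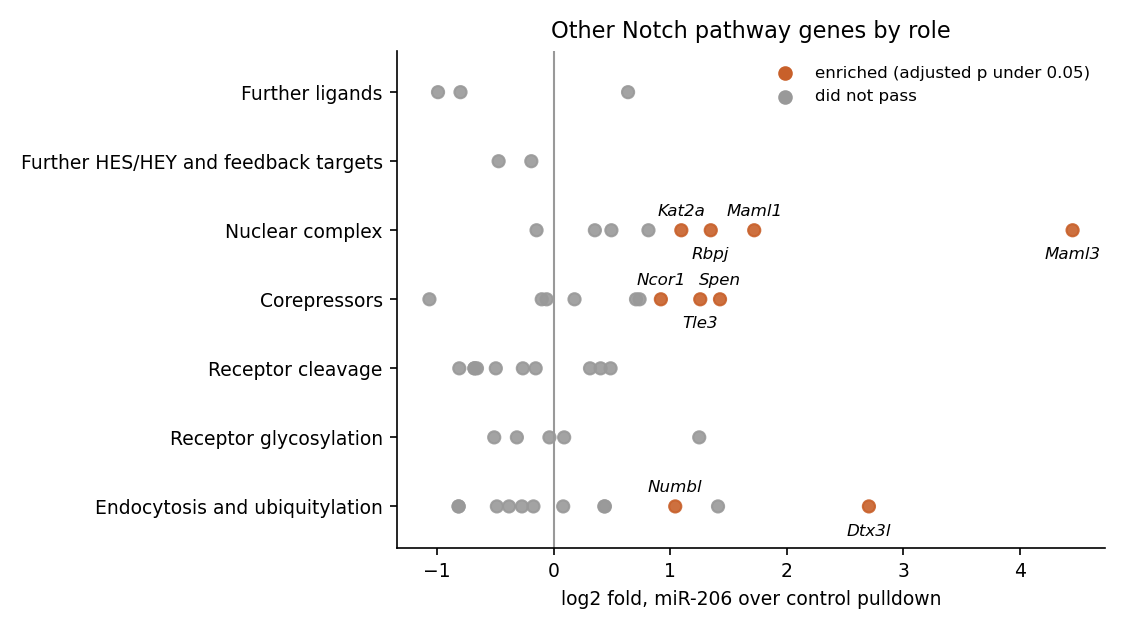
Log2 fold (miR-206 over control pulldown) of the 49 tested other genes of the Notch pathway, each a point, by role. The 9 enriched genes (orange, named) lie in the nuclear complex, the corepressors and the endocytosis and ubiquitylation group.

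The most abundant genes of the other roles did not pass with TMM. They were Psenen (137.7 ± 27.7 TPM in the control and 45.3 ± 3.60 in the miR-206 group; log2 fold of the counts -0.68 ± 0.30), the glycosyltransferase gene Poglut1 (18.7 ± 4.23 and 8.78 ± 0.383 TPM; -0.04 ± 0.29), Hes6 (9.78 ± 0.335 and 4.64 ± 0.268 TPM; -0.19 ± 0.43) and the imprinted Delta-like gene Dlk1 (5.94 ± 3.05 and 5.81 ± 2.85 TPM; 0.64 ± 0.47). For Psenen, Poglut1 and Hes6 the TPM values of the groups did not overlap and the control was the higher, as for 65.7% of all tested genes. All 3 were depleted with total counts and with TPM, where 45.3% and 38.5% of all genes were. Dll4, Hes5, Hey2 and Nrarp had at most 4 counts in any library.

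The genes whose levels over the 4 libraries lay nearest to those of Notch3, by Euclidean distance of log2 normalised CPM, were Ezh1 (21.2 and 19.4 against 59.7 and 105.8 CPM), Wbp1 (20.3 and 21.5 against 58.3 and 93.0) and Atpaf1 (24.1 and 26.2 against 73.2 and 92.8). Their distances were 0.281, 0.355 and 0.387, over 4 libraries.

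Since Notch3 marks mural cells, the pericyte and smooth muscle markers are given beside it. Of 10 markers 2 were enriched, against 15.3% of all genes, and 0 depleted, against 6.19%: Rgs5 (4.63 ± 0.42) and Abcc9 (4.92 ± 0.51), both with edgeR adjusted p under that of Notch3. The other 8 did not pass, among them Pdgfrb (0.33 ± 0.30), Cspg4 (-0.04 ± 0.50) and Acta2 (-0.75 ± 0.30). Their log2 folds went both ways, from -1.66 ± 0.99 (Myh11) to 2.77 ± 1.37 (Cnn1). Of 12 endothelial markers, beside which Notch4 belongs, 10 were tested, with 2 enriched and 1 depleted. Both counts lie near those shares, and the FAP and myogenic lists held 4 enriched markers each. What part such cells have in the values of Notch3 and Notch4 was not tested.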

How the data were processed

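FastQC, kallisto and the build mm10 are named in the submitters' processing notes; the sources used here give neither versions nor how transcripts were joined to genes. The authors deposited an estimated count and a TPM value per gene row and library, per the file headers. A further sheet deposited by the authors holds group means of TPM as a signal value (set to 0 where below 1), their log2 and a log2 fold without a test. Columns were matched to samples through the barcodes in the titles. Coordinates come from RefSeq's GRCm38.p6 table.

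Estimated counts were rounded. The test was edgeR 4.0.16 (R 4.3.3; glmQLFit and glmQLFTest, robust) with TMM scaling, group as the only term, after filterByExpr, which kept 15240 genes; p-values were adjusted over all of these (Benjamini-Hochberg). The SE is the size of the fold over the square root of the F statistic. DESeq2 1.42.0 and limma 3.58.1 were alternatives. The 10 genes and the pathway and marker lists were chosen with earlier results of these data known. Besides the 10, the text names the called pathway genes, the most abundant gene of each role and the 3 genes nearest to Notch3; markers and other genes named were chosen after their values were seen. Replicates were separate libraries: their counts differed far beyond counting error (chi-square per degree of freedom 48.2 and 58.0). On simulated counts (14586 genes, of which 14392 were unchanged), 67.3% of 4-fold and 8.51% of 2-fold changes were recovered. Few genes changed there and no shift between the groups' libraries was simulated, while 21.5% of genes were called here. These rates therefore do not give the power of the comparison made here.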

Additional observations from a re-analysis of the deposited data

How the results depend on the processing

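Of the 10 members, 2 were enriched and 0 depleted. These counts became 0 enriched and 1 depleted (Jag1) with total counts and with TPM at either pseudocount (1 or 0.1), and 2 and 1 with the upper quartile; leaving out 1 library gave 2 to 3 enriched and 0 to 1 depleted. RLE scaling, both count filters, DESeq2 and the replicate block left 2 and 0. Of the other pathway genes, 9 were enriched and 0 depleted. The enriched count was 6 with the upper quartile, where 12.3% of all tested genes were enriched. It was 2 with total counts and with TPM at either pseudocount (1 or 0.1), where 7.02%, 7.17% and 7.23% of all tested genes were. The depleted count was 1 with RLE (Tle2), 2 with at least 50 counts in total (Tle2 and Adam17), 3 without a count filter (those and Dtx3), 5 with the upper quartile, 16 with TPM at either pseudocount and 23 with total counts, and 0 to 4 when 1 library was left out; the 4 (Adam10, Adam17, Psen2 and Psenen) came without control replicate 1. Among all tested genes, 12.9% were depleted with the upper quartile, 45.3% with total counts, and 38.5% and 38.3% with TPM (pseudocount 1 and 0.1). Out of 49 tested pathway genes, the 5, 23 and 16 depleted in those settings do not stand out from these shares. The replicate numbers are not stated to pair samples, and the deviations of same-numbered libraries correlated at -0.09. With the replicate block 9 pathway genes were enriched and 3 depleted (Tle2, Adam17 and Dtx3).

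Signs turned, all without a call, for Notch1 with total counts (-0.34) and TPM (-0.30 and -0.41), Heyl with TPM (-0.48 and -0.79), Spen with TPM (-0.15 and -0.17), Ncor1 and Numbl with total counts (-0.21 and -0.058) and TPM (-0.21 and -0.21; -0.23 and -0.25), and Hes1 without control replicate 2 (0.43; -0.93 without control replicate 1). Total counts and TPM leave out the scaling step that moves the median of all genes. Over all genes, 2327 enriched and 944 depleted became 1870 and 1962 with the upper quartile, 1070 and 6909 with total counts, 1093 and 5860 with TPM (pseudocount 1), 1102 and 5842 (0.1), 2576 and 1535 without control replicate 1, 1655 and 358 without miR-206 replicate 1, and 1967 and 487 without miR-206 replicate 2. Matches to the miR-206 seed in the members' transcripts, planned with their alternatives, were not run, since no transcript sequence was used here. Depth limits Notch4, Dll1, Jag2, Hes1, Hey1 and Heyl, which had at most 47 counts in any library.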
